A study of Homo sapiens with 2 samples.

Results

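Complex I, the NADH:ubiquinone oxidoreductase of the respiratory chain, is described here through the nuclear genes whose platform symbol begins with NDUF. On the array 46 probe sets with a single such symbol gave 42 of the 18417 named genes, and the brightest probe set stood for each gene. These were 34 subunit genes, 7 NDUFAF assembly factor genes and NDUFV1-DT, a non-coding transcript that starts next to NDUFV1. All 34 subunits and all 7 factors passed a brightness filter, an intensity of 239.2 or more in the brighter array, as did 11091 genes in all, called kept genes below. NDUFV1-DT did not pass. The cells were U251, a human glioblastoma line in long use, kept in high-glucose DMEM, after 6 h with the solvent DMSO or with 5 µM G-TPP. G-TPP is a Gamitrinib, an Hsp90 inhibitor coupled to triphenylphosphonium, which carries it into mitochondria. Each condition had 1 array. There is thus no replicate against which to judge a difference, values stand without errors or tests, and "higher" or "lower" refers to these 2 arrays alone.

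Complex I takes electrons from NADH, passes them over a flavin and a chain of iron-sulfur clusters to coenzyme Q, and pumps protons out of the mitochondrial matrix. Its N module binds NADH, its Q module reduces coenzyme Q, and a membrane arm with a proximal and a distal part pumps protons. The core subunits hold the cofactors or the pumps, and part of them is encoded in mitochondrial DNA. Accessory subunits surround the core, and assembly factors help to build the complex but are not part of it. Folding and assembly of imported mitochondrial proteins depend on matrix chaperones, of which the Hsp90-type chaperone TRAP1 is a target of G-TPP. The series' design text states that the study looked for a response of mitochondrial genes to inhibition of these chaperones.

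The NDUF genes differed little between the arrays, and most lay slightly lower with G-TPP. The 34 subunits had a median log2 difference, G-TPP minus DMSO, of -0.10 and a mean of -0.11. Below 0 were 27 of them, or 79.4%, against 55.9% of all kept genes, whose median was -0.04. The subunits also lay closer together than kept genes as a whole, with a standard deviation across genes of 0.16 against 0.43 for all kept genes. That was not particular to them, as it was 0.18 for assembly factors without an NDUF symbol and 0.20 for subunits of complexes II to V. Genes were counted at a ratio of 5 to 4 between the arrays, a log2 difference of 0.322 in size, called the size rule below. It took 3 subunits as lower (8.82%), where it took 13.4% of all kept genes, and 1 subunit as higher (2.94%), where it took 16.4% of all kept genes. The share of subunits was thus under the background in both directions, but after quantile normalization 5 subunits were lower (14.7%), where 13.6% of kept genes were. No subunit reached 1.5-fold, where 3.23% of kept genes were lower and 7.37% higher, nor 2-fold, where the shares were 0.55% and 2.8%. For the 7 NDUFAF genes the median was -0.23 and the mean -0.11. Of these 5 lay below 0, and the size rule took none in either direction.

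The size rule asks for little when each group has 1 array. The log2 differences of 341 olfactory receptor genes, which are mostly silent in such cells, had a standard deviation of 0.19, which is 1.14-fold. The size rule took 24 of the 341 receptor genes as lower and 7 of the 341 as higher. It took 3 of the 34 subunits as lower and 1 as higher, and 13.4% and 16.4% of all kept genes. Of the 34 subunits 25 lay within that standard deviation of 0, and 2, NDUFV3 and NDUFA3, lay beyond 2 such standard deviations. The receptors are dimmer than the NDUF genes, with a median intensity of 68.5 with DMSO, and leave out differences between cultures. They are therefore only a rough scale.

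**Figure D1:**
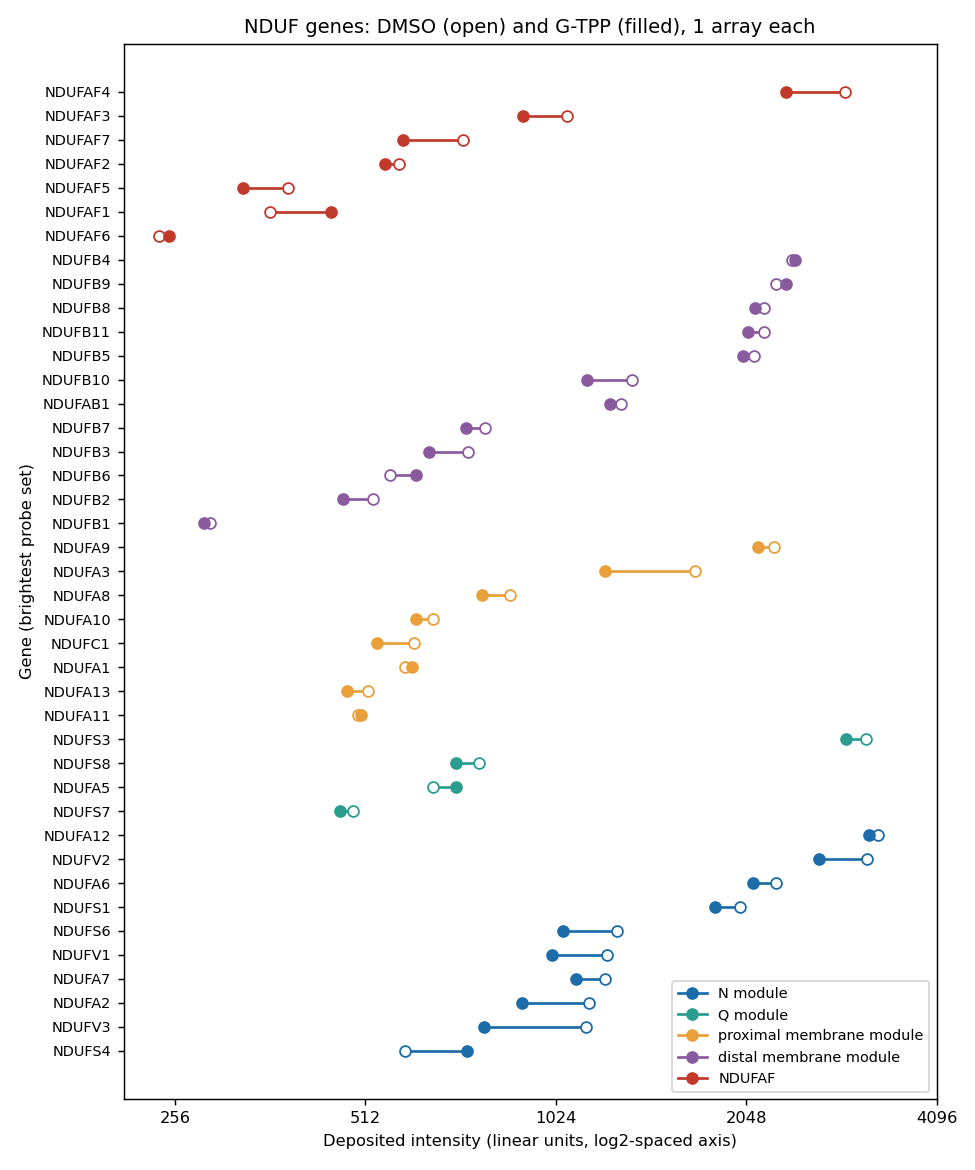
Deposited intensity (linear units on a log2-spaced axis) of the 41 kept NDUF genes in the DMSO array (open circles) and the G-TPP array (filled circles), 1 array each, coloured by module and ordered by DMSO intensity within it. In 32 of the 41 genes the filled circle lies to the left of the open one, and the longest line belongs to NDUFV3, from 1143 to 788.

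The ends of the distribution were held by 4 genes. NDUFV3, an accessory subunit beside the NADH-binding flavoprotein, went from 1143 with DMSO to 788 with G-TPP, 1.45-fold lower. NDUFA3, a small membrane protein of the proximal arm, went from 1698 to 1226, 1.39-fold lower. NDUFS4, an accessory subunit that helps to hold the N module on the complex and is mutated in Leigh syndrome, went the other way. It went from 591 to 740.2, a log2 difference of 0.33 that just meets the size rule, and a dim second probe set under the filter had a log2 difference of 0.27. NDUFAF1, an assembly factor of the membrane arm, went from 362 to 452 with a log2 difference of 0.32. NDUFS4 and NDUFAF1 lay apart from the other members, as the next highest, NDUFB6, had a log2 difference of 0.14. Among all kept genes NDUFV3 lay at percentile 4.10 and NDUFS4 at percentile 83.7, so even the end members were not at the ends of the array.

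**Figure D2:**
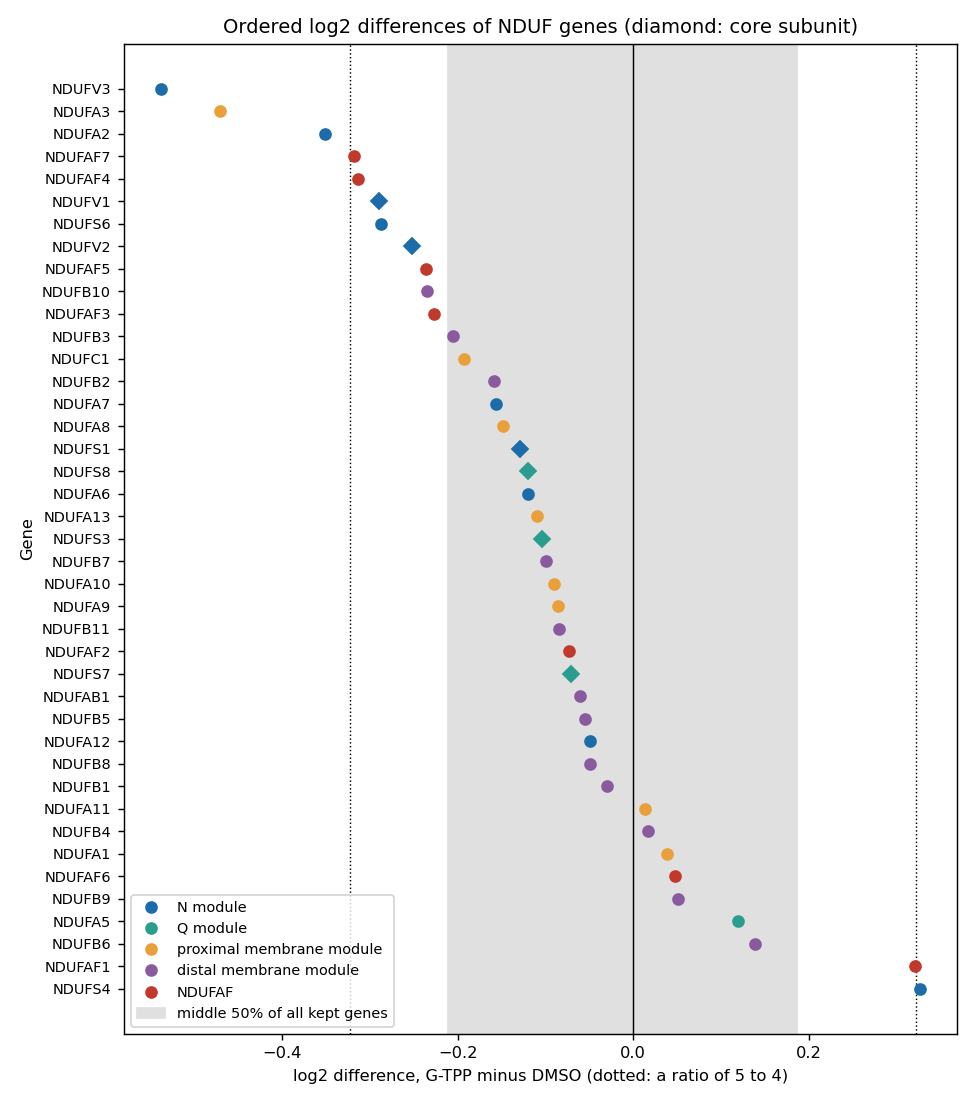
Log2 difference (G-TPP minus DMSO, x axis) of the 41 kept NDUF genes in order of size, coloured by module, with diamonds for core subunits, dotted lines at a ratio of 5 to 4 and a grey band for the middle 50% of all kept genes. Of the 34 subunits 26 lie in the band, 7 below it and 1, NDUFS4, above it, while 4 of the 7 NDUFAF genes lie below it.

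The starts of these 4 genes are shown because they carry the lowest and the highest values, together with NDUFS7 and NDUFB7, which show motif matches. Each line gives the 150 bases before the gene's start, 5′ to 3′ on the gene's strand, from RefSeq (GRCh38.p14). Capitals mark matches to the motifs searched.
NDUFV3, chr21:42893159-42893308, plus strand: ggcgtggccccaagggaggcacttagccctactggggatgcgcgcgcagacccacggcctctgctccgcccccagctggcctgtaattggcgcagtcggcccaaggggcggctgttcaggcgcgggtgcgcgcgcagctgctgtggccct
NDUFA3, chr19:54102705-54102854, plus strand: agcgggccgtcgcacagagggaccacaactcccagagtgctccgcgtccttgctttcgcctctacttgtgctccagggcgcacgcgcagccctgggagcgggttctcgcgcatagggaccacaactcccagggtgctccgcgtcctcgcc
NDUFS4, chr5:53560489-53560638, plus strand: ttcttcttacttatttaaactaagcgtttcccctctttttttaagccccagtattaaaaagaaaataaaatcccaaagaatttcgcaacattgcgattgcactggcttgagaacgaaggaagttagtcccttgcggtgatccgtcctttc
NDUFAF1, chr15:41402497-41402646, minus strand: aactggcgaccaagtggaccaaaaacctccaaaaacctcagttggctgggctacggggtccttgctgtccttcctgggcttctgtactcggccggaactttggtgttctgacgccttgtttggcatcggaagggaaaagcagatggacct
NDUFS7, chr19:1383757-1383906, plus strand: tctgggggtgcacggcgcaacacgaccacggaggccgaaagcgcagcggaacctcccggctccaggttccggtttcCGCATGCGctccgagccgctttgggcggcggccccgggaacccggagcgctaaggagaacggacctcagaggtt
NDUFB7, chr19:14572067-14572216, minus strand: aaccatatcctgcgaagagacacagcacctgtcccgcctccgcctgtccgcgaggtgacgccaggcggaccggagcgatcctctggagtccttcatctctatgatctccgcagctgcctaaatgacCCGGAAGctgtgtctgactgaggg
Promoters of respiratory genes are known for sites of NRF1 and of the ETS factor GABP, and genes of the integrated stress response for an ATF4 element, so a short core of each was searched. The search covered both strands of the 300 bases from 250 before to 50 after each listed start, and a gene counted if any of its starts held the letters. Of the 41 kept NDUF genes 38 matched a RefSeq promoter by gene ID, and NDUFB5, NDUFB9 and NDUFAF6 did not.

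The NRF1 core GCATGCG was found at 8 of 38 NDUF genes (21.1%), against 7.59% of 8944 kept genes with a promoter and 4.74% of all 27305 genes. Its forms on the 2 strands can overlap by 6 bases, and a gene was counted once. The holders were NDUFA5, NDUFA6, NDUFA8, NDUFB4, NDUFS6, NDUFS7, NDUFAF4 and NDUFAF5, and at NDUFS7 the match began 74 bases before the start. The ETS core CCGGAAG was found at 6 of 38 (15.8%), against 22.4% of kept genes and 12.2% of all genes. It was held by NDUFA1, NDUFA13, NDUFB7, NDUFS1, NDUFS3 and NDUFAF4. The ATF4 element core TGATGCA was found at 0 of 38, against 2.18% of kept genes and 3.24% of all genes. NDUF genes with the NRF1 core had a median log2 difference of -0.13 and those without it -0.11, and for the ETS core the medians were -0.11 and -0.12. Neither motif therefore split the NDUF genes by their difference, and none of the 4 genes at the ends held a match in its window.

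Core subunits, which carry the flavin and the iron-sulfur clusters, were all slightly lower. All 6 that were measured lay below 0, beside 55.9% of all kept genes, and their median log2 difference was -0.12. NDUFV1, which holds the flavin and the NADH site, went from 1236 to 1011, 1.22-fold lower. NDUFV2, its iron-sulfur partner, went from 3176 to 2666, and its second probe set gave the same log2 difference of -0.25. NDUFS1, which carries several of the clusters, went from 2002 to 1831 with a log2 difference of -0.13. These 3 form the electron input, and the other 3 belong to the Q module.

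NDUFS8, which carries iron-sulfur clusters on the way to coenzyme Q, went from 773 to 712 with a log2 difference of -0.12. NDUFS3, a core subunit without a cluster that joins the Q module early, went from 3165 to 2946, a log2 difference of -0.10. NDUFS7, which carries the last cluster before coenzyme Q, went from 490.2 to 467, a log2 difference of -0.07. Each of these lay within the spread of the olfactory receptors. Of the 7 mitochondrially encoded ND genes, 0 were named on the array, so the proton-pumping core is missing from these values.

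The N module was the lowest of the structural modules. Its 10 subunits had a median log2 difference of -0.20. With NDUFS4 as the exception, 9 of its 10 subunits lay below 0 (90%, beside 55.9% of all kept genes). Among its accessory subunits NDUFA2, a protein with a thioredoxin-like fold, went from 1154 to 905, 1.28-fold lower. NDUFS6, a zinc-binding subunit added late in assembly, went from 1282 to 1050.4, 1.22-fold lower. NDUFA7 went from 1226 to 1100.4 with a log2 difference of -0.16. NDUFA6, which binds the mitochondrial acyl carrier protein, had -0.12, and NDUFA12, which takes the place of the assembly factor NDUFAF2, had -0.05. The module thus spanned the lowest and the highest subunit of complex I, and its median was -0.16 without NDUFV3. With 1 array per group the difference between modules was not tested, and the ranges of their values overlap.

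In the Q module the 4 measured subunits had a median of -0.09, and 1 of them lay above 0. That was NDUFA5, an accessory subunit of the peripheral arm, which went from 655 to 712, a log2 difference of 0.12.

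The proximal membrane arm, with 8 measured subunits, had a median of -0.10 and 6 below 0 (75%, beside 55.9% of all kept genes). After NDUFA3 came NDUFC1, from 610.2 to 534 (log2 difference -0.19), and NDUFA8, a disulfide-bonded subunit on the outer side of the inner membrane, from 867 to 782 (-0.15). NDUFA13, known as a cell death regulator as well as a subunit, went from 516 to 478, a log2 difference of -0.11. NDUFA10, which has a nucleoside kinase fold, and NDUFA9, related to short-chain dehydrogenases, each had -0.09. NDUFA11 and NDUFA1 lay just above 0 at 0.01 and 0.04. Leaving NDUFA3 aside, all subunits of this arm lay between -0.19 and 0.04.

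The distal membrane arm had the median nearest to 0, although after lowess centring that of the Q module was slightly nearer (-0.07 against -0.08). Its 12 subunits had a median of -0.06, and all lay between -0.23 and 0.14. Below 0 were 9 (75%, beside 55.9% of all kept genes). NDUFB10, a disulfide-bonded subunit, was the lowest, from 1351 to 1148 (1.18-fold lower). NDUFB3 went from 744 to 645 with a log2 difference of -0.21, and NDUFB2 from 527 to 472 with -0.16. NDUFB7 had -0.10 and NDUFB11, which is encoded on the X chromosome, -0.08. The remaining members lay between -0.06 and 0.14. NDUFAB1, the acyl carrier protein that also serves fatty acid and iron-sulfur cluster synthesis, went from 1301 to 1247 (-0.06). NDUFB5 had -0.05, NDUFB8 -0.05 and NDUFB1 -0.03, while NDUFB4 had 0.02, NDUFB9 0.05 and NDUFB6 0.14. NDUFB1 and NDUFB4 sit so close to 0 that their sign turned with the scaling: NDUFB1 was at 0.07 and NDUFB4 at -0.01 after lowess centring. Both probe sets of NDUFB4 held the same values and count as 1 measurement.

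Assembly factors with an NDUFAF symbol split into a lower and a level-to-higher set. NDUFAF7, a methyltransferase that acts on the Q module, went from 732 to 587, a log2 difference of -0.318 that falls just short of the size rule. NDUFAF4, which works on the Q module, went from 2939 to 2365 (1.24-fold lower), and its partner NDUFAF3 from 1065 to 910.0 (1.17-fold lower). NDUFAF5, which hydroxylates NDUFS7, went from 386 to 328, 1.18-fold lower. These 4 factors had log2 differences between -0.32 and -0.23, and none of them met the size rule.

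The other 3 NDUFAF genes were level or higher. NDUFAF2, a paralog of NDUFA12 that acts late in assembly, went from 579 to 551, a log2 difference of -0.07, but its dimmer second probe set was at 0.12 and the mean over both at 0.02. NDUFAF6 had 242 with DMSO, close to the filter, and 250.2 with G-TPP. NDUFAF1 was the highest factor. All 7 factors lay within the range of the subunits. The medians of subunits and factors differed by 0.13, while their means differed by 0.0013, so the difference between subunits and assembly factors rests on the choice of the median. It was also smaller after lowess centring, at 0.05.

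NDUFAF1 works in one assembly complex with partners that include ACAD9, ECSIT, TMEM126B and COA1. These were named after their values were seen and are not a full list. Of them only COA1 was higher, as NDUFAF1 was. ECSIT went from 497 to 446 (log2 difference -0.16), TMEM126B from 336 to 316 (-0.09) and ACAD9 from 1812 to 1727 (-0.07). COA1 went from 2193 to 2485, a log2 difference of 0.18. TMEM186, of the same list of assembly factors, went from 240 to 193 (-0.31), with its G-TPP value under the filter. The 15 assembly factors without an NDUF symbol had a median of -0.07, with 11 below 0 (73.3%, beside 55.9% of all kept genes). The size rule took 2 as lower (13.3%, beside 13.4% of all kept genes) and none as higher (beside 16.4%). The lowest was AIFM1, from 1153 to 817 (1.41-fold lower). It is a flavoprotein of the intermembrane space that supports import of some complex I subunits and is also known from cell death. Next came RTN4IP1, from 295 to 234 (1.26-fold lower), with its G-TPP value under the filter.

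**Figure D3:**
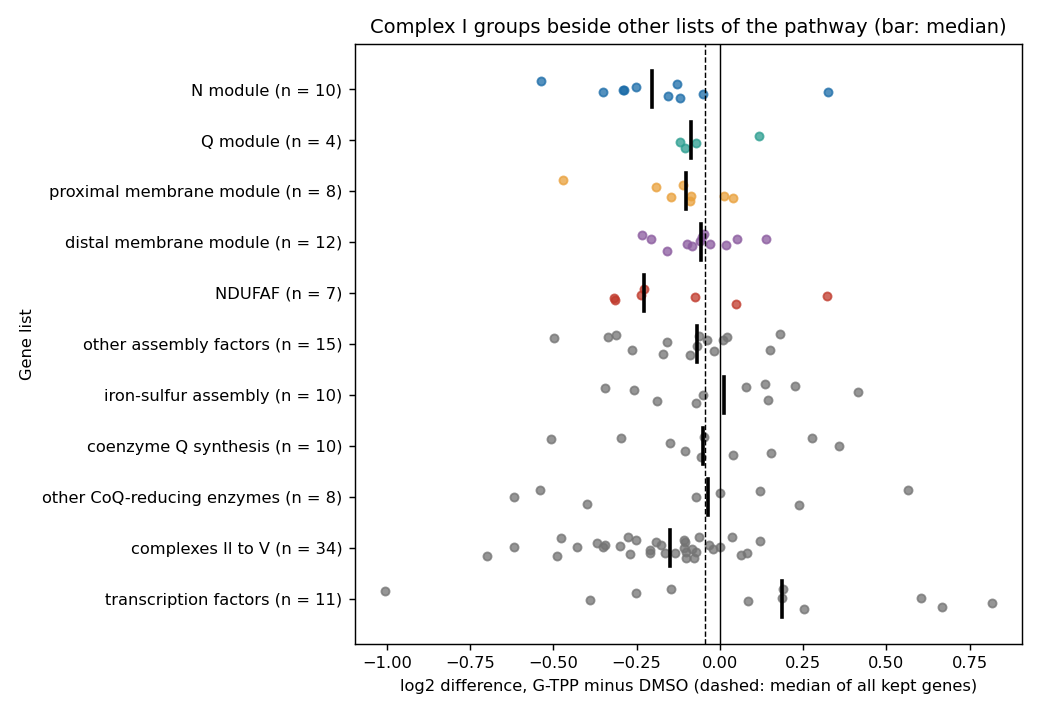
Log2 difference (G-TPP minus DMSO, x axis) of each kept gene in the complex I modules, the NDUFAF genes (coloured) and other lists of the pathway (grey), with a black bar at each median and a dashed line at the median of all kept genes, -0.04. The N module and the NDUFAF genes have the lowest medians, -0.20 and -0.23, and the transcription factors have the widest spread, from -1.004 to 0.82.

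Genes that supply complex I or share its substrate pointed both ways. For iron-sulfur cluster assembly 10 genes were kept, with a median of 0.01 on the log2 scale, and of -0.0049 after quantile normalization. Of this list 5 genes lay below 0 (50%, beside 55.9% of all kept genes). Within it the mitochondrial Hsp70 gene HSPA9 was 1.33-fold higher, from 6062 to 8077, and the glutaredoxin gene GLRX5 1.27-fold lower, from 1710.3 to 1347. Coenzyme Q synthesis had a median of -0.05 over 10 genes, but 0.04 after lowess centring. Below 0 were 6 of these genes (60%, beside 55.9% of all kept genes). PDSS1, which makes the side chain of coenzyme Q, was 1.42-fold lower (1985 to 1397), and the hydroxylase gene COQ7 1.28-fold higher (448 to 573).

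Other enzymes that hand electrons to coenzyme Q had a median of -0.04 over 8 genes and a wide spread. Below 0 were 4 of these genes (50%, beside 55.9% of all kept genes). SDHA, the flavoprotein of complex II, was 1.54-fold lower, and SQOR, the sulfide:quinone oxidoreductase, was 1.48-fold higher. The median of this list was 0.01 when the median of all kept genes was set to 0. Subunits of complexes II to V, measured by 34 genes, had a median of -0.15, with 29 below 0 (85.3%, beside 55.9% of all kept genes). The size rule took 8 as lower (23.5%, beside 13.4% of all kept genes) and none as higher (beside 16.4%). The complex III subunit gene UQCRB was the lowest, from 283 to 174 (1.63-fold lower), with its G-TPP value under the filter. ATP5MC3, also among the 8 taken as lower, had its G-TPP value under the filter too. Both were thus kept only through the DMSO array, and the count of 8 rests in part on them. Complex I subunits, with 27 of 34 below 0 and 3 taken as lower by the size rule, differed by less than this list. All complex I subunits lay above the filter in both arrays, unlike UQCRB and ATP5MC3, so the counts are not fully alike. The difference between the complexes was not tested.

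Transcription factors and coactivators of respiratory genes differed more than the complex I genes themselves. Over 11 genes their median was 0.19, with 4 below 0 (36.4%, beside 55.9% of all kept genes). It was 0.10 with the mean over probe sets and 0.08 over the 7 genes left at the 75th percentile filter, and the mean over the 11 genes was 0.09. The size rule took 2 as lower (18.2%, beside 13.4% of all kept genes) and 3 as higher (27.3%, beside 16.4%). Of the 2 lower, PPARGC1B went from 299 to 228, so its G-TPP value lay under the filter. The coactivator gene PPRC1 went from 765 to 381 (2.01-fold lower) and its relative PPARGC1A from 352 to 620.0 (1.76-fold higher). NRF1 and the ETS factor gene GABPA, named because their motif cores were searched, each had a log2 difference of 0.19. Whether any of these differences bears on the NDUF genes was not tested.

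**Figure D4:**
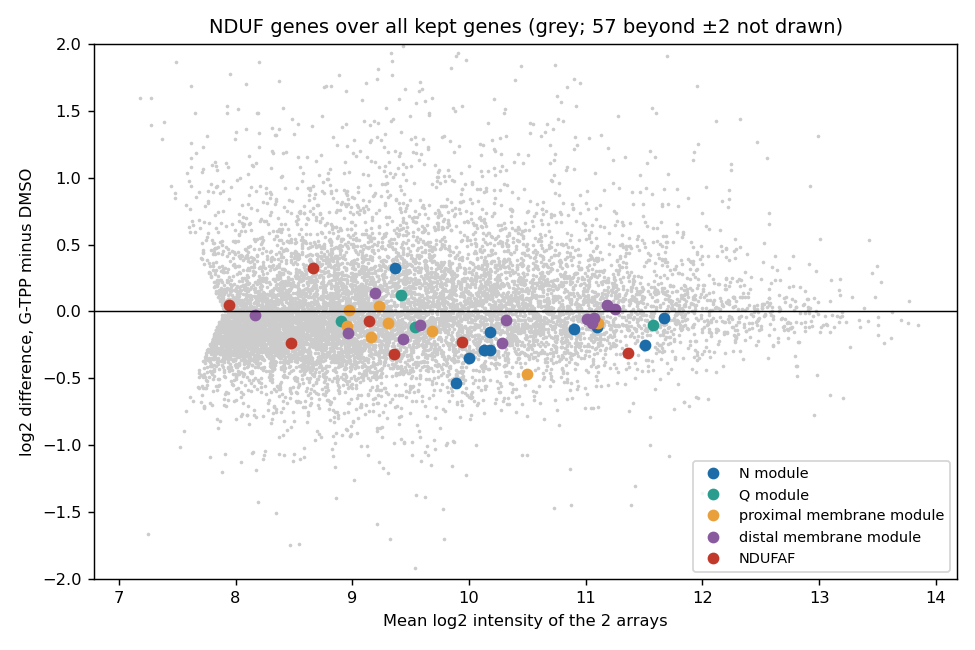
Log2 difference (G-TPP minus DMSO, y axis) against the mean log2 intensity of both arrays (x axis) for the 41 kept NDUF genes, coloured by module, over all kept genes in grey, of which 57 lie beyond the y axis. All 11 subunits in the middle span of brightness lie below 0, while the dimmer span holds subunits on both sides, NDUFS4 among them.

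The low values were most even among subunits of middle brightness. Ordered by mean intensity, the 11 subunits between 695 and 1462 were all below 0 with a median of -0.21, whereas the 2647 other kept genes in that span had a median of 0.03 and 46.1% below 0. In the 12 brighter subunits the median was -0.09 with 10 below 0, against 0.02 and 47.7% for 1550 other genes. In the 11 dimmer subunits it was -0.03 with 6 below 0, against -0.07 and 60.5% for 4675 other genes. Across the 34 subunits the difference and the mean log2 intensity correlated weakly, with r = -0.13 and rho = -0.08. This is a description across genes that share the same pair of arrays, and the spans were chosen after the data were seen.

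Markers and controls place these values. The astroglial and glioma markers VIM (7146 with DMSO) and CD44 (8013) were bright. GFAP lay close to the filter, at 245 with DMSO and under it with G-TPP (231.5), and S100B lay under it in both arrays. SOX2 and SOX9 were 2.72-fold and 1.98-fold lower with G-TPP. Of 12 markers of immune, endothelial, epithelial and neuronal cells 5 passed the filter. These were KRT8 at 2167 with DMSO, the immune markers CD68 at 584 and TYROBP at 306, the endothelial marker CDH5 at 319.5 and the neuronal marker RBFOX3 at 248. Of these 5, TYROBP (220.4 with G-TPP) and RBFOX3 (231.7 with G-TPP) passed the filter only through the DMSO array. The other 7 of the 12 markers, among them PTPRC, PECAM1, EPCAM and SYT1, lay under the filter. The part of such markers in the NDUF values was not tested. DDIT3, which encodes the stress factor CHOP, was 8.35-fold higher, and TRAP1 was 1.24-fold lower. RMA makes the distributions of arrays much alike, so these values cannot show whether cells held more or less RNA in total. The deposited distributions were not the same, with a median over all probe sets of 224.8 with DMSO and 215.5 with G-TPP.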

How the data were processed

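Per the labels' protocols, RNA was isolated with Trizol and 6 µg of it went into biotin-labelled cRNA. Each probe set has 1 deposited intensity for each array, and values between 6.61 and 18995 show a linear scale. The submitters' processing notes name RMA and Affymetrix Expression Console 1.1.2. The arrays in that run and the step to linear values are not stated in these sources.

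Of 33297 probe sets 19460 had 1 symbol in the platform annotation, and only these were used. The probe set with the highest mean of both arrays stood for a gene. The filter was the median over probe sets of the brighter array. The log2 difference was taken with no pseudocount, and each fold is the ratio of the 2 deposited values. With 1 array per group there was no test, and the number of arrays limits the precision. Nothing says whether more than 1 culture was used. Modules follow textbook structure, with NDUFAB1 placed in the distal arm, although it also sits elsewhere in the complex. The placing of NDUFA6 and NDUFA9 varies between sources. NDUFAF8 was not analysed here. The full values named are those of the NDUF genes, of the 2 genes with the largest absolute difference in each other pathway list, and of controls. The named partners of NDUFAF1 were added after their values were seen, as were TMEM186, ATP5MC3 and PPARGC1B. Members and lists were chosen with earlier results of these data known. The procedure was tested on simulated arrays with planted 1.5-fold changes and less noise than the spread of the olfactory receptors. That test therefore does not tell how often the size rule errs on these arrays. Alternatives were other filters, centring, quantile normalization, probe set choices, a pseudocount of 16, the mean, other folds and current RefSeq symbols. Tables were computed with pandas 2.3.3 and numpy 2.4.6 under Python 3.11.15, lowess with statsmodels 0.14.6, and plots with matplotlib 3.10.9.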

Additional observations from a re-analysis of the deposited data

How the results depend on the processing

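The subunit median stayed below 0 under all alternatives run, from -0.13 with quantile normalization to -0.06 with the median of kept genes set to 0, and 21 to 27 subunits lay below 0 (21 of 25 at the 75th percentile filter). The count of subunits taken as lower by the ratio of 5 to 4 was 5 after quantile normalization and 0 at 1.5-fold and at 2-fold. The count taken as higher was 0 after quantile normalization, with the mean over probe sets, with 16 added to the intensities, at 1.5-fold and at 2-fold, so NDUFS4 passes that size only narrowly. At the 75th percentile filter 3 NDUFAF genes remained and 3 were below 0. With the mean in place of the median the NDUFAF value was -0.11 and the subunits minus NDUFAF value 0.0013. The difference of medians, 0.13, was 0.05 after lowess centring and 0.08 after quantile normalization. Current RefSeq symbols gave the same members. No paired analysis was possible because each group has 1 array, and leaving out a replicate was not possible for the same reason.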

Other observations

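Some complex I genes lie outside the rule. NDUFC2 shares its probe set with the readthrough gene NDUFC2-KCTD14, and that probe set went from 4164 to 4209, a log2 difference of 0.02. The probe set annotated to NDUFS5 and 3 other genes had a log2 difference of -0.08, which cannot be assigned to NDUFS5. COXFA4, formerly NDUFA4 and now counted with complex IV, went from 400.2 to 383 (log2 difference -0.06). Its paralog COXFA4L2, formerly NDUFA4L2 and known from hypoxia, went from 252 to 226 (-0.16), close to the filter in both arrays.

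NDUFV1-DT starts 230 bases from NDUFV1 on the other strand, by the RefSeq annotation. It was dim, going from 137 to 121, and had a log2 difference of -0.18 beside -0.29 for NDUFV1.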
